A study of Homo sapiens with 12 samples.

Results

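Nestin, SOX2 and 8 further genes used as markers of glioma stem cells and of glial cells were followed in A172, an adherent line established from a human glioblastoma, with and without overexpression of hHSS1 (gene symbol EMC10, formerly C19orf63). The members were set by gene symbol with earlier results of these data known: NES, SOX2, SOX9, VIM, GFAP, OLIG2, S100B, CD44, PROM1 and FABP7. All 10 were measured, each by 1 probe set with that single symbol, among 18417 genes on Affymetrix Human Gene 1.0 ST arrays.

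The 12 arrays fell into 4 groups of 3 cultures, all harvested on day 4. Clone 8 and clone 7 were A172 lines stably transfected with pcDNA3.1 carrying hHSS1 with a C-terminal histidine tag, mock was the line stably transfected with the empty pcDNA3.1 vector, and wild-type A172 was not transfected. The stable clones were maintained in G-418. The replicates were separate cultures by the study's methods, but clone 8, clone 7, mock and wild-type are 1 line each, so that p-values measure the spread between cultures and not between independently made lines. A transfection effect, a clone effect and an hHSS1 effect cannot be told apart for any 1 line. The levels are log2 values as deposited, and a difference of 1 is a doubling. A gene was called changed at an adjusted p under 0.05 (limma, Benjamini-Hochberg over all 18417 genes) and a 1.5-fold or larger difference, and the text says where a gene met the adjusted p alone.

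Neural stem cells and radial glia carry the intermediate filament proteins nestin and vimentin, and they depend on transcription factors of the SOX family. As they mature into astrocytes, GFAP and S100B come up, whereas OLIG2 accompanies the oligodendrocyte lineage. Glioblastoma cells express mixtures of these genes, and nestin, SOX2, OLIG2, CD133 (encoded by PROM1) and CD44 are widely used to mark the tumour cells with stem cell properties, CD44 being tied to the mesenchymal form of the disease.

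EMC10, the transfected gene, was measured first as a check of the labels. Its level was 12.13, 12.18 and 11.75 in clone 8 and 11.57, 11.72 and 12.30 in clone 7, so that the third array of each clone lay with the first and second arrays of the other. It averaged 12.02 ± 0.24 in clone 8 and 11.87 ± 0.39 in clone 7, against 9.35 ± 0.15 in mock and 10.75 ± 0.36 in wild-type (log2 level, SD, n = 3 each). Both clones lay 2.59 ± 0.18 (SE) log2 units above mock, which is 6.04-fold (adjusted p = 7.82e-06, limma), and every clone array lay above every mock array. EMC10 was also 2.65-fold lower in mock than in wild-type (adjusted p = 0.00285, limma), so that the control lines themselves differed in this gene. Against wild-type, EMC10 was 2.28-fold higher in both clones (log2 difference 1.19 ± 0.18, adjusted p = 0.0013, limma).

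Across all genes, 2 clone arrays went against their labels. After centring on the 6 clone arrays, the array labelled clone 8 replicate 3 correlated at -0.25 and -0.82 with the other arrays of its own clone but at 0.49, 0.41 and -0.78 with those of clone 7. The array labelled clone 7 replicate 3 correlated at -0.68 and -0.64 with its own clone and at 0.30, 0.72 and -0.78 with clone 8 replicates 1 to 3. Replicates 1 and 2 correlated at 0.09 in clone 8 and at 0.75 in clone 7. These are descriptions over 18417 genes on shared arrays. Over all 12 arrays, 8 had their closest array in their own group and 4, all of them clone arrays, had it in the other clone. The labels were kept throughout. Results that separate the clones are given with and without these 2 arrays, and since they were picked out from the same values, the calls without them are not independent evidence.

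Between both clones and mock, 1 of the 10 markers changed, which was NES, against 0.728% of all genes tested. At the adjusted p alone, 2 of 10 were lower, NES and SOX2, and 0 were higher, where 3.51% of all genes were lower and 2.87% were higher. The other 8 markers, namely SOX9, VIM, GFAP, OLIG2, S100B, CD44, PROM1 and FABP7, did not pass the test. The median difference over the 10 markers was -0.04 log2 units, against 0.01 over all genes. Since the members were chosen with earlier results known, nothing is read from these counts beside the shares of all genes.

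**Figure D1:**
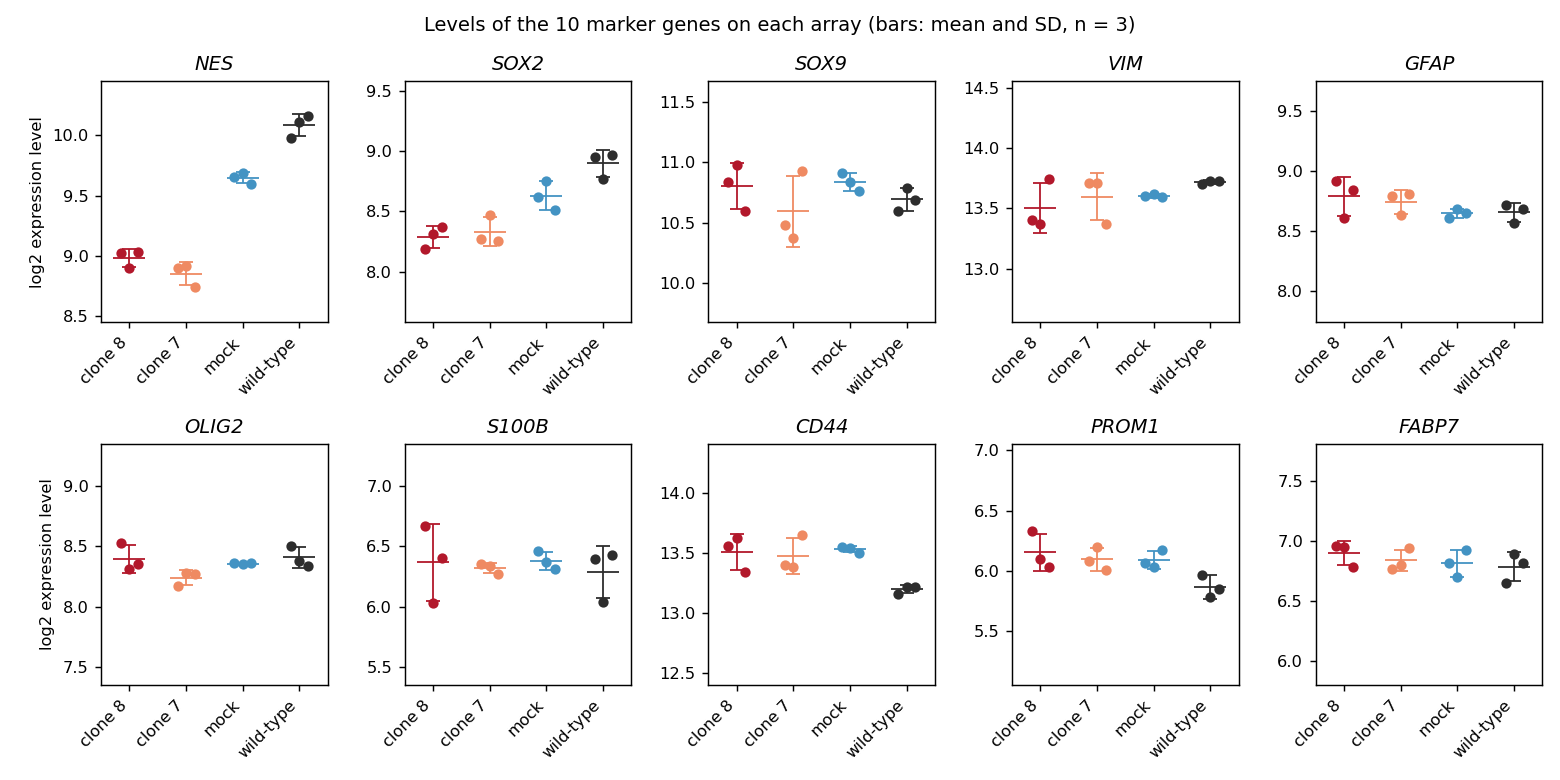
Log2 expression level (vertical axis, each panel spanning 2 log2 units) of the 10 marker genes on each array in clone 8, clone 7, mock and wild-type; points are arrays, the wide bar is the mean and the whiskers the SD over 3 arrays. NES runs from 8.74 to 9.03 in the clones, from 9.60 to 9.69 in mock and from 9.98 to 10.16 in wild-type, and SOX2 also lies lower in the clones than in mock and lower in mock than in wild-type, in smaller steps.

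NES encodes nestin, an intermediate filament protein of neural progenitors. The study lists it among the genes lower in these A172 clones, so that its direction here is not independent evidence. Its level was 9.02, 8.90 and 9.03 in clone 8 and 8.90, 8.92 and 8.74 in clone 7, against 9.65, 9.69 and 9.60 in mock and 9.98, 10.11 and 10.16 in wild-type. Every clone array was therefore below every mock array, and every mock array below every wild-type array. The clone levels were not shown to lie above background, since no detection call was available. NES fell by 0.73 log2 units ± 0.06 (SE) in both clones against mock, with a 95% interval from -0.87 to -0.60, which is 1.66-fold (adjusted p = 5.89e-05, limma).

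The fall was found in each clone. In clone 8 NES was 1.59-fold lower than in mock (log2 difference -0.67 ± 0.07, adjusted p = 0.000504, limma), where 0.76% of all genes changed. In clone 7 it was 1.73-fold lower than in mock (log2 difference -0.79 ± 0.07, adjusted p = 0.000146, limma), where 0.70% of all genes changed. The difference of clone 8 from clone 7 was 0.12, with an interval from -0.03 to 0.28 (adjusted p = 0.62, limma), so that the order of the clones was not resolved. Without the 2 arrays that went against their labels, the difference of both clones from mock was -0.71 (adjusted p = 3.19e-05, limma) and that of clone 8 from clone 7 was 0.04.

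NES was also lower in mock than in wild-type, by 1.35-fold (log2 difference -0.44 ± 0.07, interval -0.59 to -0.28, adjusted p = 0.00723, limma). This met the adjusted p, as 2.24% of all genes did, but not the fold limit. Against wild-type, NES was 2.25-fold lower in both clones (log2 difference -1.17 ± 0.06, adjusted p = 9.75e-07, limma), where 1.58% of all genes changed. These comparisons share arrays with each other and are not independent. The order of NES levels was wild-type, mock and then the clones, and only the clones did not differ beyond their spread.

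SOX2 encodes a high-mobility-group transcription factor that maintains neural stem cells, and its gene lies within the long non-coding transcript SOX2-OT. Its level was 8.19, 8.31 and 8.37 in clone 8 and 8.27, 8.47 and 8.25 in clone 7, against 8.62, 8.75 and 8.51 in mock and 8.95, 8.77 and 8.97 in wild-type. The clones did not overlap mock and mock did not overlap wild-type, although the highest clone array (8.47) came close to the lowest mock array (8.51). No detection call was available, so these levels were not shown to lie above background. SOX2 was 1.24-fold lower in both clones than in mock at the adjusted p alone (log2 difference -0.32 ± 0.08, interval -0.48 to -0.15, adjusted p = 0.0285, limma).

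This SOX2 call rested on single arrays. It was lost without mock replicate 1 (adjusted p = 0.113), without mock replicate 2 (adjusted p = 0.183) or without clone 7 replicate 1 (adjusted p = 0.0668), with differences of -0.32, -0.26 and -0.30, and over 20 alternatives the adjusted p (limma) ranged from 0.00667 to 0.183. Taken alone, clone 8 was 1.26-fold lower than mock at the adjusted p alone (log2 difference -0.34 ± 0.09, adjusted p = 0.048, limma), as 5.09% of all genes did. This call was lost without any 1 of the wild-type or mock arrays, clone 7 replicate 1 or clone 8 replicate 1 (adjusted p of 0.0527 to 0.204). Clone 7 differed from mock by -0.30 ± 0.09, which did not pass (adjusted p = 0.0998, limma), where 3.14% of all genes did. The difference of clone 8 from clone 7 was -0.04, with an interval from -0.23 to 0.15, so that the clones were not shown to differ. Without the 2 arrays that went against their labels, SOX2 differed from mock by -0.32 in both clones (adjusted p = 0.0205, limma), by -0.38 in clone 8 (adjusted p = 0.0212, limma) and by -0.26 in clone 7 (adjusted p = 0.0951, limma). The difference of clone 8 from clone 7 was then -0.12 (adjusted p = 0.486, limma).

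Mock differed from wild-type in SOX2 by -0.27 ± 0.09 log2 units (interval -0.46 to -0.08), which did not pass (adjusted p = 0.169, limma). Against wild-type, SOX2 was lower in both clones by 1.5-fold (log2 difference -0.59 ± 0.08, adjusted p = 0.000527, limma). That difference lay at the fold limit, and it went below it, at -0.55 to -0.57, when wild-type replicate 1, wild-type replicate 3, clone 7 replicate 1, clone 7 replicate 3 or clone 8 replicate 1 was left out. The adjusted p stayed at or under 0.00626 in these fits.

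The promoter windows of the genes that were lower in both clones, NES and SOX2, are shown because they are the markers that met the adjusted p in that comparison. They are RefSeq sequences of GRCh38.p14, from 250 bases before to 50 after the start site on the gene's strand, and 6 of the 10 markers had an entry (NES, SOX2, VIM, CD44, PROM1 and FABP7). Capitals mark matches on either strand to the GC box GGGCGG, the CCAAT box CCAAT, the SOX core ACAAAG and the TATA box TATAAA. The NES window is chr1:156677358-156677657 on the minus strand and the SOX2 window is chr3:181711675-181711974 on the plus strand.
NES: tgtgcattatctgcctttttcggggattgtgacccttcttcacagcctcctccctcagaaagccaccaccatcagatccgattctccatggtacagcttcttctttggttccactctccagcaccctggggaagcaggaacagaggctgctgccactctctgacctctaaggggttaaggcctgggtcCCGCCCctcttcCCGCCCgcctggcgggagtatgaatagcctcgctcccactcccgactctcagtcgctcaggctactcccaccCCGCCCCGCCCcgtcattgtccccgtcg
SOX2: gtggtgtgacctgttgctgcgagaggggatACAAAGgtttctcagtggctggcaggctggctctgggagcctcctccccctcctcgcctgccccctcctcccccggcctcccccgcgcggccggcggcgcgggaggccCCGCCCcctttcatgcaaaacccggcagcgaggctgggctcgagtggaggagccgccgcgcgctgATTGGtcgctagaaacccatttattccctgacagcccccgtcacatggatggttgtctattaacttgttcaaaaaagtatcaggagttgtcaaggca

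The NES window held 4 GC boxes, 2 of them before the start site at -62 and -50 and a pair overlapping by 1 base after it at 22 and 27, and no match to the other motifs. Its GC content was 60.3% with 14 CpG. The SOX2 window held 1 GC box at -112, 1 CCAAT box at -47 and 1 SOX core at -220, with a GC content of 63.3% and 20 CpG. Of 35114 promoters of this length, 45% held a GC box, 34.6% a CCAAT box, 16.1% the SOX core and 11.5% the TATA box, so that most of these matches are common. A match describes letters only. Factor binding was not measured.

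SOX9, VIM and CD44 split the clone arrays in the way the 2 arrays split across all genes. SOX9, a SOX factor of glial specification, had levels of 10.84, 10.98 and 10.60 in clone 8 and 10.48, 10.37 and 10.93 in clone 7, against 10.91, 10.84 and 10.76 in mock and 10.60, 10.79 and 10.69 in wild-type. The third array of each clone lay with the first and second arrays of the other clone. With all arrays, SOX9 differed from mock by -0.14 in both clones (interval -0.39 to 0.11, adjusted p = 0.56, limma), by -0.03 in clone 8 and by -0.25 in clone 7.

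VIM encodes vimentin, the intermediate filament protein that partners nestin, on chromosome 10. Its level was 13.40, 13.37 and 13.74 in clone 8 and 13.71, 13.71 and 13.37 in clone 7, against 13.60, 13.62 and 13.59 in mock and 13.70, 13.73 and 13.73 in wild-type. Here the third array of clone 8 was the high one and the third array of clone 7 the low one. The difference of both clones from mock was -0.05 (interval -0.25 to 0.14, adjusted p = 0.809, limma).

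CD44 is the cell surface receptor for hyaluronan. Its level was 13.56, 13.62 and 13.34 in clone 8 and 13.40, 13.38 and 13.65 in clone 7, against 13.55, 13.54 and 13.5 in mock and 13.16, 13.22 and 13.22 in wild-type. The clones overlapped mock, with a difference of -0.04 (interval -0.20 to 0.12, adjusted p = 0.82, limma), while every transfected array lay above every wild-type array. CD44 was 1.22-fold higher in both clones than in wild-type at the adjusted p alone (log2 difference 0.29 ± 0.07, adjusted p = 0.0295, limma), where 9.95% of all genes met it. That call was lost without any 1 of the wild-type arrays (adjusted p of 0.0961 to 0.103). Mock differed from wild-type by 0.33 ± 0.09 (interval 0.14 to 0.52), which did not pass with all arrays (adjusted p = 0.0773, limma).

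**Figure D2:**
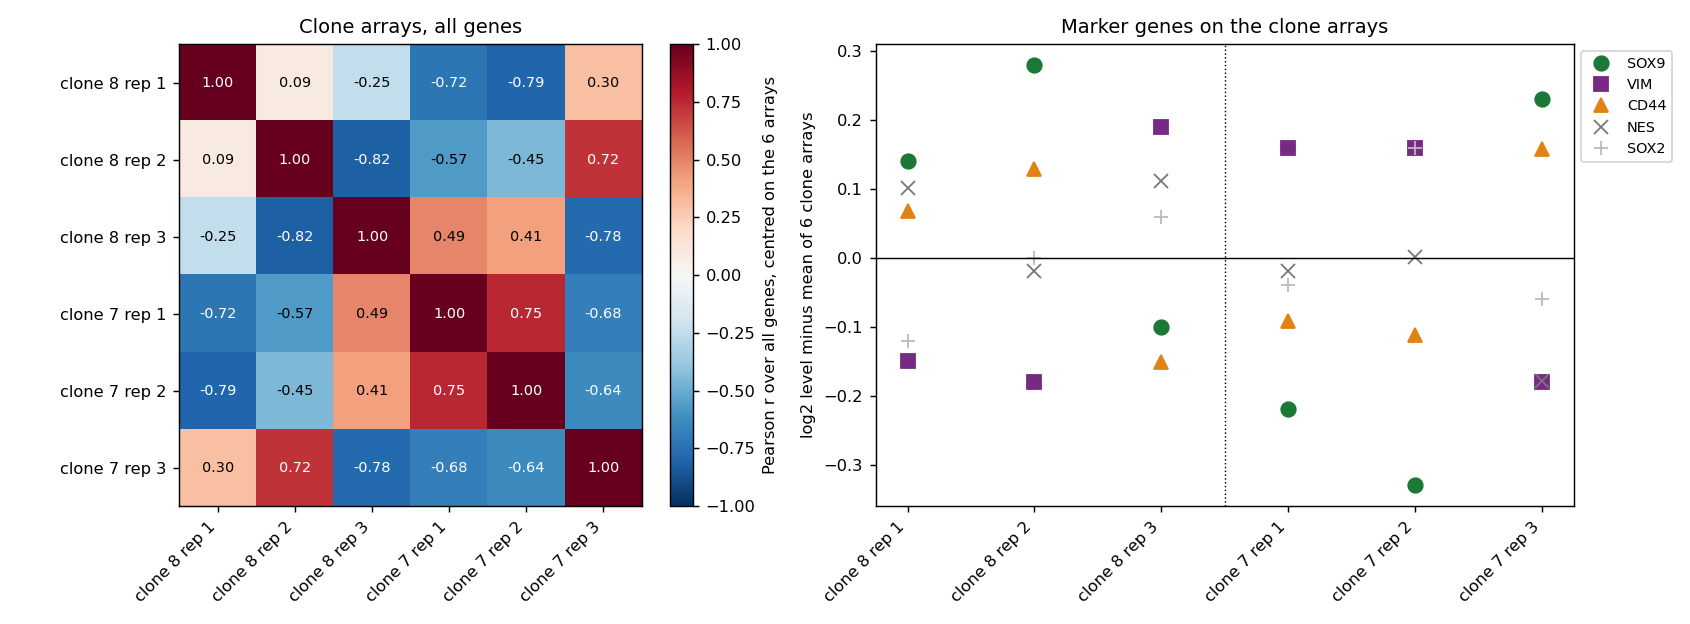
Left, Pearson correlation between the 6 clone arrays over 18417 genes after centring each gene on the 6 arrays; right, log2 level minus the mean of the 6 clone arrays (vertical axis) for SOX9, VIM, CD44, NES and SOX2 on each clone array. The arrays labelled clone 8 replicate 3 and clone 7 replicate 3 sit with the other clone in SOX9, VIM and CD44.

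With all 12 arrays, 0 of 10 markers and 0 of 18417 genes differed between clone 8 and clone 7 in limma, by either limit, and 1 marker (OLIG2, difference 0.16, and 0.20 with an adjusted p of 0.153 without the 2 arrays) and 1328 genes, or 7.21%, had an unadjusted p under 0.05. The differences were 0.21 for SOX9 (interval -0.07 to 0.50), -0.10 for VIM (interval -0.32 to 0.13) and 0.03 for CD44 (interval -0.16 to 0.22). Without the 2 arrays that went against their labels, these became 0.48 for SOX9 (adjusted p = 0.00267), -0.33 for VIM (adjusted p = 0.00289) and 0.20 for CD44 (adjusted p = 0.0477). Then 3 of 10 markers and 17.2% of all genes met the adjusted p (limma), and 617 genes, or 3.35%, met both limits.

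The comparisons with mock also moved without these 2 arrays. SOX9 was then lower in clone 7 than in mock at the adjusted p alone (log2 difference -0.41, adjusted p = 0.00438, limma), and VIM was lower in clone 8 than in mock (log2 difference -0.22, adjusted p = 0.0192, limma). The values of NES in clone 8 and clone 7 against mock were -0.69 and -0.74 without the 2 arrays, close to those with them. CD44 was then higher in mock than in wild-type at the adjusted p alone (0.33, adjusted p = 0.00216, limma).

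GFAP and OLIG2 differed little. GFAP, the astrocyte intermediate filament protein, ranged from 8.57 to 8.92 over the 12 arrays, and both clones differed from mock by 0.12 (interval -0.04 to 0.27, adjusted p = 0.417, limma). OLIG2, a transcription factor of the oligodendrocyte lineage and of proneural glioma, ranged from 8.17 to 8.53 with a difference of -0.04 (interval -0.17 to 0.09, adjusted p = 0.793, limma). Neither interval reached a change of 1.5-fold in either direction, while that of NES lay wholly past it. GFAP shares its locus with DNAAF19 and FAM187A in RefSeq, and strand or probe position was not examined.

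S100B, PROM1 and FABP7 lay below the lower quartile of their own array (7.00 to 7.12) on all 12 arrays, whereas the other 7 markers did so on 0. Without a detection call, such levels could not be told from background. Lying above the lower quartile was not a detection call either. SOX2 ranged from 8.19 to 8.97, with GFAP and OLIG2 at similar levels. The neuron marker RBFOX3 (group means 8.72 to 8.82) and the endothelial marker CLDN5 (8.78 to 8.9) lay there too. NES in the clones, at 8.74 to 9.03, lay close to these levels. Whether SOX2, GFAP, OLIG2 and, in the clones, NES stood above background was not tested. S100B, a calcium-binding protein of astrocytes, ranged from 6.03 to 6.67, PROM1, which encodes the CD133 surface protein, from 5.78 to 6.33, and FABP7, the brain fatty acid-binding protein of radial glia, from 6.65 to 6.96. Their differences between both clones and mock were -0.03, 0.04 and 0.05, with adjusted p (limma) of 0.924, 0.847 and 0.749.

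Among these dim genes PROM1 alone met an adjusted p in any comparison. It was 1.20-fold higher in both clones than in wild-type (log2 difference 0.26 ± 0.08, adjusted p = 0.049, limma), with 6.33, 6.10 and 6.03 in clone 8 and 6.08, 6.20 and 6.01 in clone 7, against 5.97, 5.78 and 5.85 in wild-type. The groups did not overlap, but the call was lost without any 1 of the wild-type or mock arrays, clone 7 replicates 1 or 2, or clone 8 replicate 1, and over the alternatives the adjusted p (limma) ranged from 0.0106 to 0.229. Against wild-type, in all, 2 of 10 markers changed in the clones (NES and SOX2, both lower), where 1.58% of all genes did. The adjusted p was met by 4 of 10 markers, the higher ones being CD44 and PROM1, and by 9.95% of all genes. Between mock and wild-type 0 of 10 changed, where 0.673% of all genes did, and NES alone met the adjusted p. As the members were chosen with earlier results known, nothing is read from these counts either.

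**Figure D3:**
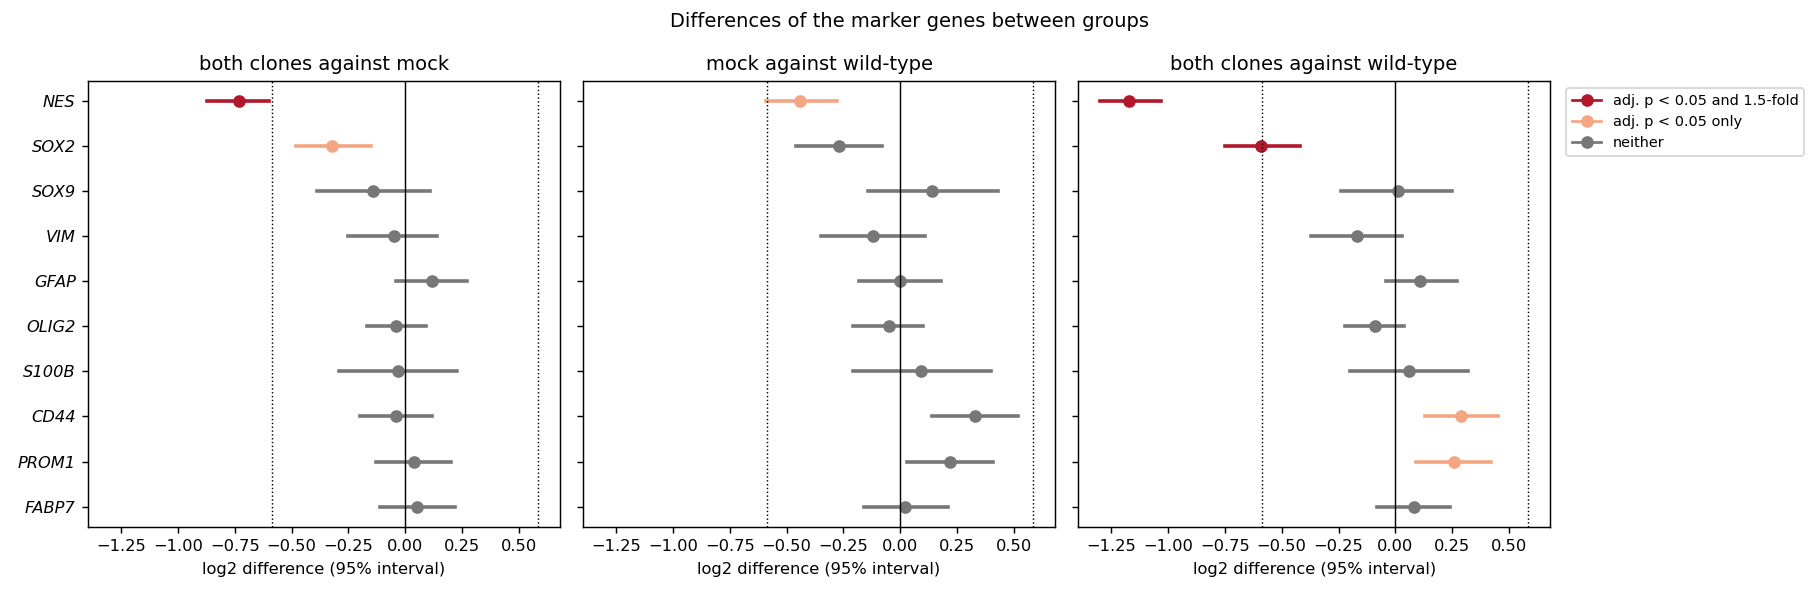
Log2 difference with its 95% interval (horizontal axis) for the 10 marker genes for both clones relative to mock, mock relative to wild-type and the clones relative to wild-type; dotted lines mark 1.5-fold and colours the limits met. NES lies left of 0 in all 3 panels, at -0.73, -0.44 and -1.17, and SOX2 follows at -0.32, -0.27 and -0.59.

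Related genes were counted from lists of stem cell, lineage and partner genes. Over all 14 lists, 4 of 202 measured genes changed in both clones against mock, or 1.98%, against 0.728% of all genes. Since the lists were chosen with earlier results known, nothing is read from this excess. Of 27 further neural and glioma stem cell genes, 1 was higher and 1 lower in both clones than in mock, with a median of 0 against 0.01 over all genes. With all arrays, both genes, LGR5 and EZH2, were called in clone 8 alone against mock and neither in clone 7 alone. Without the 2 arrays that went against their labels, clone 7 differed from mock by 0.81 in LGR5 (adjusted p = 0.00476, limma). In EZH2 it then differed by -0.60 (adjusted p = 0.000342, limma), so that both genes passed both limits in clone 7 too. EZH2, the histone methyltransferase of the Polycomb complex, had levels of 10.33, 10.57 and 10.51 in clone 8 and 10.55, 10.50 and 10.72 in clone 7, against 11.09, 11.15 and 11.15 in mock and 10.94, 10.98 and 11.03 in wild-type. It was 1.52-fold lower in both clones than in mock (log2 difference -0.60 ± 0.07, adjusted p = 0.000393, limma) and went below 1.5-fold without clone 7 replicate 2 (-0.58) or clone 8 replicate 1 (-0.56). EZH2 is also in the study's own list for these A172 samples, as is NES, so that neither direction is independent evidence. In clone 7 alone EZH2 was 1.45-fold lower than mock, under the fold limit (adjusted p = 0.00305, limma).

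LGR5, a receptor for R-spondins that marks stem cells of several epithelia, had levels of 8.33, 8.95 and 7.68 in clone 8 and 7.77, 7.68 and 8.62 in clone 7, against 7.00, 6.93 and 6.81 in mock and 7.20, 7.29 and 6.93 in wild-type. All 3 mock arrays lay below their lower quartile, at levels not separable from background. The fold is therefore given as a bound. With each of those levels raised to its array's lower quartile, LGR5 was at least 2.2-fold higher in both clones than in mock. Its measured difference of both clones from mock was 1.25 ± 0.25 log2 units (adjusted p = 0.0109, limma), and in clone 7 alone it did not pass (1.11, adjusted p = 0.0581, limma). The call was lost without any 1 mock array (adjusted p of 0.0509 to 0.0642), and the third arrays of the clones again lay with the other clone. In the same list ITGA6, an integrin subunit, was lower (-0.32) and PTPRZ1, a receptor phosphatase whose probe set was dim on all 12 arrays, was higher (0.34), at the adjusted p alone.

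Of 18 astrocyte genes, 1 was lower in both clones than in mock and 0 were higher. This was NFIB, a nuclear factor of glial development, with 11.24, 11.48 and 11.16 in clone 8 and 10.99, 11.02 and 11.50 in clone 7, against 11.89, 11.92 and 11.84 in mock and 11.44, 11.47 and 11.52 in wild-type. NFIB was 1.57-fold lower in both clones than in mock (log2 difference -0.65 ± 0.10, adjusted p = 0.00349, limma). Mock stood above wild-type as well, by 0.41, which did not pass (adjusted p = 0.124, limma). The clones differed from wild-type by -0.25, which did not pass either (adjusted p = 0.166, limma). Without the 2 arrays that went against their labels, both met the adjusted p alone. These differences were then 0.41 (adjusted p = 0.00299, limma) and -0.29 (adjusted p = 0.00706, limma). The astrocyte water channel AQP4 and the glutamate transporter SLC1A2 were below the lower quartile on all 12 arrays, whereas 15 of the 18 genes lay above it on all 12.

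Of 14 hyaluronan and CD44 partner genes, 1 was higher in both clones than in mock and 0 were lower. VCAN, the hyaluronan-binding proteoglycan versican, had levels of 10.69, 10.93 and 10.34 in clone 8 and 10.42, 10.39 and 10.87 in clone 7, against 9.94, 9.95 and 9.86 in mock and 9.55, 9.80 and 9.68 in wild-type. It was 1.61-fold higher in both clones than in mock (log2 difference 0.69 ± 0.13, adjusted p = 0.0083, limma), and the call was lost without mock replicate 3 (adjusted p = 0.0526). Without the 2 arrays that went against their labels, the differences of both clones from mock were 0.69 for VCAN and -0.70 for NFIB. Those for LGR5 and EZH2 were 1.27 and -0.64, and all 4 passed both limits. Taken alone against mock, VCAN in clone 7 (0.49) and NFIB in clone 8 (-0.52) then met the adjusted p only. Clone 8 then differed from clone 7 by 0.92 in LGR5 (adjusted p = 0.00343, limma), past both limits. VCAN (0.40, adjusted p = 0.014, limma) and NFIB (0.36, adjusted p = 0.011, limma) met the adjusted p alone there, and EZH2 (-0.08) did not pass. In both clones against mock, with all arrays, the proteoglycan SRGN was higher (0.34) at the adjusted p alone. RDX, which links CD44 to actin, was lower (-0.32) at that limit.

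None of the remaining lists held a gene called in both clones against mock. At the adjusted p alone, 1 of 13 further intermediate filament genes was higher, the lens filament gene BFSP1 (0.51), and 2 were lower, the nuclear lamins LMNB1 (-0.47) and LMNB2 (-0.28). Of 17 further SOX family genes 1 was higher, SOX4 (0.32), which is also among 15 proneural glioma genes, where DLL1 (-0.21) and STMN1 (-0.30) were lower. Of 22 mesenchymal glioma genes 2 were higher, FOSL2 (0.21) and TGFBI (0.37). Of 18 S100 and fatty acid-binding protein genes 1 was lower, S100A3 (-0.25), and of 15 oligodendrocyte lineage genes 0 passed in either direction. For comparison, 6.38% of all genes met the adjusted p in this comparison.

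Markers of other cell types were read as a check of what the cultures could hold. The endothelial (10 genes), leukocyte and microglia (10), fibroblast and pericyte (10) and epithelial (9) lists had 0 genes past the adjusted p in both clones against mock, and the neuron list had 1 of 11, STMN2 (0.30). The mean level of the fibroblast and pericyte list ran from 9.32 to 10.23 in clone 8 and from 9.52 to 10.29 in clone 7, against 10.04 to 10.12 in mock and 10.50 to 10.60 in wild-type, with DCN below the lower quartile on all 12 arrays. This mean was lower on every transfected array than on every wild-type array, and its part in the NES and SOX2 differences was not tested. PECAM1 and EMCN of the endothelial list and AIF1, CX3CR1 and P2RY12 of the leukocyte list were below the lower quartile on all 12 arrays. By contrast, 7 of 10 endothelial, 5 of 10 leukocyte and 8 of 10 fibroblast genes lay above it on all 12 arrays. So did 8 of 9 epithelial and 10 of 11 neuron genes. The dim genes therefore do not show that such cells were absent.

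Mock differed from wild-type in 4 of the 202 measured genes of these lists, or 1.98%, against 0.673% of all genes. The lists were chosen with earlier results known, so nothing is read from that excess. HES1, a Notch target that holds progenitors undifferentiated, was 2.27-fold higher in mock (log2 difference 1.18 ± 0.16, adjusted p = 0.00151, limma), with 11.40, 11.05 and 11.05 in mock against 10.25, 9.61 and 10.08 in wild-type. The mesenchymal list's MET, the hepatocyte growth factor receptor, was 1.96-fold higher (0.97 ± 0.08, adjusted p = 3.43e-05, limma). STMN2, a neuronal microtubule regulator, was 1.73-fold lower (-0.79 ± 0.07, adjusted p = 6.6e-05, limma), and COL1A1, a fibrillar collagen chain, was 1.64-fold lower (-0.72 ± 0.10, adjusted p = 0.00188, limma). HES1 and MET therefore differed between the control lines in the direction opposite to NES. Against wild-type, 12 of the 202 changed in the clones, or 5.94%, against 1.58% of all genes. Nothing is read from this excess either, for the same reason. Of 27 stem cell genes 2 were higher and 1 lower, of 22 mesenchymal genes 3 were higher, of 14 CD44 partner genes 1 was higher, and 3 of 10 fibroblast, 1 of 15 proneural and 1 of 10 leukocyte genes were lower.

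The genes whose level over the 12 arrays was most like that of NES and SOX2 were found by the root mean square difference of log2 levels after each gene was centred on its mean. For NES these were LRRC15 (0.151), OSR1 (0.175) and PLCXD3 (0.176), against a median of 0.527 over all genes. LRRC15 averaged 11.76 in clone 8 and 11.89 in clone 7, against 12.64 in mock and 13.16 in wild-type. OSR1 averaged 9.10 in each clone, against 9.48 in mock and 10.16 in wild-type, whereas PLCXD3 averaged 8.06 in clone 8 and 8.13 in clone 7, against 8.99 in mock and 9.06 in wild-type. The step of PLCXD3 thus lay between the clones and mock, and that of OSR1 lay mainly between mock and wild-type.

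For SOX2 the closest genes were INPP4B (0.0994), CIP2A (0.0997) and DCDC2 (0.101), against a median of 0.295. INPP4B averaged 11.45 in clone 8 and 11.58 in clone 7, against 11.74 in mock and 12.01 in wild-type. CIP2A averaged 10.49 in clone 8 and 10.61 in clone 7, against 10.93 in mock and 11.08 in wild-type, and DCDC2 averaged 7.81 in clone 8 and 7.86 in clone 7, against 8.11 in mock and 8.37 in wild-type. All 3 had their lowest group mean in clone 8 and their highest in wild-type. LRRC15 and PLCXD3, like NES, are also in the study's list for these samples. These genes were picked for likeness, so no test is given.

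**Figure D4:**
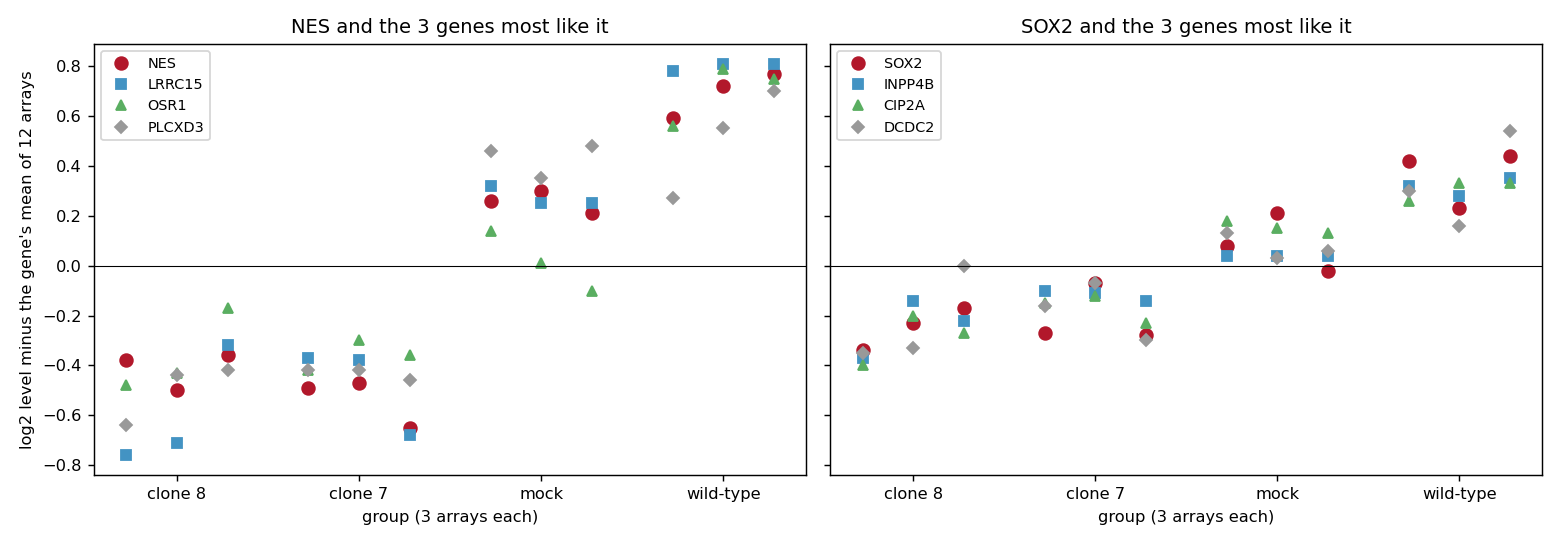
Log2 level minus the gene's mean of 12 arrays (vertical axis) by group, 3 arrays each, for NES with LRRC15, OSR1 and PLCXD3 (left) and SOX2 with INPP4B, CIP2A and DCDC2 (right). All 8 genes have their lowest group means in the clones and their highest in wild-type.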

How the data were processed

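RNA from 12 A172 cultures was read on Affymetrix Human Gene 1.0 ST arrays. The authors deposited summarized log2 values. The submitters' processing notes name Partek, and the summary and normalization steps were not given in the sources used here. There were 33297 probe sets with 0 missing values and array medians of 8.60 to 8.67, taken as they were. Probe sets with a single symbol numbered 19460, those with several 1754 and those with none listed 12083. For each of 18417 genes the probe set with the highest mean was kept, of which 18389 matched a RefSeq table (GRCh38.p14) used for chromosomes and overlaps.

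A model over the 4 groups was fitted with limma 3.58.1 (lmFit, eBayes) in R 4.3.3, with 6 contrasts and Benjamini-Hochberg adjustment within each. The fold limit is the study's for A172. Its methods pair it with a p-value, naming no adjustment, and its table notes with a q-value, and an adjusted p was used here. The mean of both clones weighs them equally. Errors are SEs of differences and SDs of levels over 3 arrays. The script was tested on simulated data. The number of arrays limits the precision. Figures were drawn with matplotlib 3.10.9.

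The members and the 14 gene lists were chosen with earlier results of these data known. Outside the members, a listed gene is named as changed where it met both limits in both clones against mock or in mock against wild-type, at most 4 per list and contrast. Listed genes that met the adjusted p alone, or that were dim on every array, were named after their values were seen. For each member called in any contrast, the 3 genes most like it are named. The results were recomputed under 10 other settings, and leaving out both arrays that went against their labels was added after seeing the data.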

Additional observations from a re-analysis of the deposited data

How the results depend on the processing

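NES kept its direction, and its side of both limits, in each comparison in the 20 refits that kept those limits, and in both clones against mock its difference stayed between -0.75 and -0.70. SOX2 in both clones against mock stayed between -0.37 and -0.26. Its adjusted p (limma) was 0.052 with the arrays of the compared groups alone.

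Where the marker count moved, the fold limit did it. With the adjusted p alone, 2 markers were counted in both clones against mock, 2 in clone 8 against mock, 1 in mock against wild-type and 4 in both clones against wild-type. At 1.3-fold with an unadjusted p under 0.001, mock against wild-type gave 1. The marker counted in mock against wild-type with the adjusted p alone was NES, which did not meet both limits there. Leaving out 1 array gave 1 to 2 in both clones against wild-type, the lower count where SOX2 missed the fold limit.

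Counts over all genes moved more. With array weights 205 genes changed in both clones against mock, 346 in clone 7 against mock and 201 in mock against wild-type. With the arrays of the compared groups alone the counts were 89 in clone 8 against mock and 200 in mock against wild-type. At 1.3-fold with an unadjusted p under 0.001 they were 387 in both clones against mock, 376 in clone 8 against mock, 329 in clone 7 against mock, 277 in mock against wild-type and 585 in both clones against wild-type. With the adjusted p alone they were 1175, 938, 579, 413 and 1832 in the same order. Leaving out both arrays that went against their labels gave 379 in clone 8 against mock, 399 in clone 7 against mock, 617 in clone 8 against clone 7 and 199 in mock against wild-type. With all arrays and both limits the counts were 134 in both clones against mock, 140 in clone 8 against mock, 129 in clone 7 against mock, 0 in clone 8 against clone 7, 124 in mock against wild-type and 291 in both clones against wild-type. Leaving out 1 array gave 107 to 178 in both clones against mock, 88 (without mock replicate 2) to 277 (without clone 8 replicate 3) in clone 8 against mock, 89 to 277 (without clone 7 replicate 3) in clone 7 against mock, and 96 to 153 in mock against wild-type. The causes were not tested.

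Signs turned only among differences that were not called. Array weights gave 0.01 for S100B in both clones against mock and 0.08 for VIM in clone 7 against mock, and quantile normalization gave 0.01 for SOX9 in clone 8 against mock. Without both arrays, VIM in clone 7 against mock was 0.11, and in clone 8 against mock SOX9 was 0.07 and CD44 0.06. Leaving out 1 array, the ranges in both clones against mock were -0.11 to 0.05 for S100B, 0 to 0.11 for FABP7, -0.11 to 0 for VIM and -0.01 to 0.07 for PROM1 (0.09 without both). In clone 7 against mock VIM ran from -0.06 to 0.11, and in clone 8 against mock SOX9 ran from -0.12 to 0.07 and CD44 from -0.08 to 0.06. In clone 8 against clone 7 CD44 ran from -0.03 to 0.12 (0.20 without both) and SOX2 from -0.08 to 0.03.

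Same-numbered arrays deviated together in 3 of 18 pairs (correlations from -0.83 to 0.45, 0.1 being the limit), so the numbers were not taken to pair the samples. With the replicate number as a block 120 genes changed in both clones against mock, NES had an adjusted p of 0.000673 there, and SOX2 missed the limit there (0.0599) and in clone 8 against mock (0.0894). CD44 (0.0629) and PROM1 (0.0703) missed it in both clones against wild-type. Among the markers, the block ended no other call named here. Calls of the listed genes under the block are not given.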
